A study of Homo sapiens with 42 samples.

Results

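Cetuximab is an antibody that binds the extracellular part of EGFR and blocks its ligands. The change in transcription that it gave in the same direction in every one of 6 head and neck squamous cell carcinoma (HNSCC) lines is described here, leaving aside the 2 programs already known to move in these arrays, the output genes of the ERK kinase and the interferon response. The comparison rests on 36 of the 42 arrays of the series. Each of the lines SCC25, SQ20B, SCC61, SCC047, SCC090 and 93VU147T had 3 arrays of cells treated with cetuximab (CTX, 100 nM for 24 hours) and 3 arrays of control cells of the same line. The labels give the controls as untreated, whereas the methods name a saline control. According to the methods SCC25, SQ20B and SCC61 are negative and SCC047, SCC090 and 93VU147T positive for human papillomavirus. The remaining 6 arrays, of treated SCC1 cells and of untreated HaCaT keratinocytes, lacked a matched partner and were not compared. According to the labels, survival under cetuximab ran from 7.61% in SCC25 to 40.16% in SCC61, and it was 28.65% in SQ20B, 31.2% in SCC047, 35.57% in 93VU147T and 39.07% in SCC090. The methods compute survival as the colony area after 7 days of treatment relative to a saline control. Nothing in the labels says that arrays of a group came from separate cultures, so the p-values below rest on array-to-array spread alone, of which part or all may be technical.

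The members were chosen by sign. For each of 19775 genes, 1 probe set was kept (the one with the highest mean over the 42 arrays), the change was taken as the CTX mean minus the control mean in each line on the log2 scale, and a gene was counted as shared when the change had 1 sign in all 6 lines and the mean of the 6 changes passed limma at a Benjamini-Hochberg adjusted p under 0.05 ("called" in what follows). This left 1378 genes, 548 higher (2.77% of all genes) and 830 lower (4.20%). With each array centred on its median the counts were 659 and 662, so the excess of falls depends on the scaling. Of these, 1344 were on neither the ERK output nor the interferon list. Since the sign and the mean chose them, their changes are given as a description.

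EGFR signals through the RAS, RAF, MEK and ERK cascade and through PI3K and AKT, and in stratified epithelia its activity keeps keratinocytes proliferating and motile and holds back their terminal differentiation. Desmosomes are the junctions that rivet neighbouring keratinocytes together. Their cadherins, the desmogleins and desmocollins, bridge the gap between cells and are tied to keratin filaments by plakoglobin, desmoplakin and the plakins, and their composition shifts as a keratinocyte differentiates. CCN1 and CCN2 are secreted matrix-associated proteins whose genes are classic targets of YAP and the TEAD factors, which report adhesion, cell shape and growth factor input.

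Sequence upstream of 3 members is shown because the results below turn on them. They are RefSeq windows of build GRCh38.p14 that run from 250 bases before to 50 bases after the annotated start of the gene, read on the gene's own strand. CCN2 had the largest fall, and its window (chr6:131951323-131951622, minus strand) holds the TEAD element GGAATG 3 times, beginning 169, 104 and 95 bases before the start. ASNS, asparagine synthetase, is a textbook target of the amino acid response, and its window (chr7:97872359-97872658, minus strand) holds TGATGNAA, the core of the C/EBP-ATF element of that response, 1 time, 68 bases before the start. DSC2, desmocollin 2, was among the rises with the largest change in their weakest line, and its window (chr18:31102372-31102671, minus strand) holds the AP-2 element GCCNNNGGC 2 times, at 149 and 63 bases before the start. The matches are in capitals.
CCN2: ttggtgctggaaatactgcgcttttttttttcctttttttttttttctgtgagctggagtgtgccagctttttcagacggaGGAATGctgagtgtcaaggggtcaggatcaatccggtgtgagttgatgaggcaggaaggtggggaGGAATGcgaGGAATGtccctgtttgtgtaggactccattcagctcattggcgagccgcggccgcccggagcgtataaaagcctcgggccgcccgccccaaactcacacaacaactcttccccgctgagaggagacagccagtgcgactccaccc
ASNS: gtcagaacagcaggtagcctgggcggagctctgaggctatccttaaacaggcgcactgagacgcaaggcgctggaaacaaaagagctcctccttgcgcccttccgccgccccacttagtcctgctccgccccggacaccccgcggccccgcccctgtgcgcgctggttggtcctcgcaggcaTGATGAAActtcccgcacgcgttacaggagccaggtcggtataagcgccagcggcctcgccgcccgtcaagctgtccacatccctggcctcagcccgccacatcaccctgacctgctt
DSC2: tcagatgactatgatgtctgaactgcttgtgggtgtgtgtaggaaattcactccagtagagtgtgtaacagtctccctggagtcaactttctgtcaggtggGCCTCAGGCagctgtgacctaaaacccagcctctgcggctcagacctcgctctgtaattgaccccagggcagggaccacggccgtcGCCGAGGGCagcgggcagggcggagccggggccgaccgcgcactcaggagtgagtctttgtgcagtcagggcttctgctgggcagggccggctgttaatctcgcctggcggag

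Windows were matched by symbol for 461 of the shared rises, 610 of the shared falls and 15384 of all genes, and each element was searched on both strands. GGAATG stood in 9.98% of the windows of the rises, 12.6% of those of the falls and 11.9% of all windows. CCN2 was 1 of only 15 genes among the 15384 with at least 3 copies, and the 1 such gene among the shared falls. The AP-2 element stood in 29.3% of the rises, 30.7% of the falls and 28.6% of all windows, and the AP-1 element TGANTCA in 4.99%, 5.74% and 5.84%. The ETS element CCGGAAG was found in 15.6% of rises, 10.7% of falls and 14.4% of all windows, and the CCAAT box in 37.1%, 29.0% and 36.1%. The shares for TGATGNAA were 2.17%, 3.61% and 2.62%. A match is a run of letters and not a known site.

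The arrays were of even quality with 1 exception that bears on every statement about 6 lines. Array medians lay between 5.09 and 5.16 on the log2 scale, and arrays of a group correlated at 0.990 or more. SCC090 control replicate 1 differed by more than 0.5 log2 units from the mean of the other 2 controls of its line for 1132 genes, whereas the next array reached 657 and the median array 143. The serial numbers in the array names put all 18 control arrays before all 18 CTX arrays, so a drift along that order and the treatment cannot be told apart. By its array name SQ20B control replicate 3 falls in another batch than the other 35 arrays. Of 100 named genes of 1 sign, 12 no longer had 1 sign without SCC090 control replicate 1, namely IKZF2, CARD6, H2BC5, BNIP3L, SAMD9L, CYP24A1, SARS1, SHMT2, BAK1, PTGES, PLK3 and AXIN2. For many, though not all, changes in SCC090 that shrank without that array, both values are given below. Of the 68 such genes with a further probe set, 24 had one that was not called in the same direction. The 3' minus 5' signal of ACTB, a measure of RNA integrity, was higher in CTX than in control arrays without overlap in SCC25, SQ20B and SCC047 (by 0.07, 0.29 and 0.11), and its part in the shared changes was not tested. All 9 squamous epithelial markers were above a log2 level of 6 in at least 1 line. The 8 leukocyte and the 8 endothelial markers averaged between 4.61 and 5.12 and between 4.77 and 4.97 in the CTX groups of the 6 lines, and between 4.51 and 5.29 and between 4.85 and 5.12 in the control groups, with 2 genes of each list above 6 in any line. The 10 fibroblast markers averaged 5.07 to 6.93 in CTX and 4.99 to 6.59 in control groups, and 1 of them, COL5A1, was a shared rise (0.21).

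The largest shared rises were not a single pathway. SULT1E1, the oestrogen sulfotransferase, rose by 1.01 ± 0.06 log2 units in the mean of the lines (SE, 3 CTX and 3 control arrays a line, limma adjusted p = 4.2e-14), but by only 0.02 in SCC090. In that line its arrays lay near background and overlapped (CTX 3.29, 3.65 and 3.49, control 3.51, 3.51 and 3.33). A further SULT1E1 probe set gave 1.355 in the mean but -0.12 in SCC090, so it did not have 1 sign. NEBL, which encodes the actin-binding protein nebulette, rose by 1.00 ± 0.05 (adjusted p = 1.7e-15). IKZF2, the transcription factor Helios, followed with 0.90, CARD6, a caspase recruitment domain protein, with 0.88, and ZNF658, a zinc finger gene, with 0.88. In SCC090 the changes of IKZF2 and CARD6 were 0.03 and 0.16 with control replicate 1 and -0.10 and -0.05 without it, so their 1 sign rests on that array. NAP1L2, a nucleosome assembly protein, rose by 0.86, BORCS7, a subunit of the complex that positions lysosomes, by 0.86, FAIM, an inhibitor of FAS-induced death, by 0.85, and MATN2, a matrix matrilin, by 0.85. IFT70B, of the ciliary transport machinery, rose by 0.84, the receptor FGFR3 by 0.82 and the SRC-related kinase FRK by 0.80. For IKZF2 a further probe set gave -0.04 (adjusted p = 0.66) and for MATN2 it gave 0.00 (adjusted p = 0.96), so their rise rests on the probe set kept. IFT70B and its neighbour IFT70A are near-identical copies, and probes may not separate them.

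NEBL rose by 0.48 or more in every line. Its 3 CTX arrays read 7.63, 7.77 and 7.71 in SCC25, against 7.21, 7.08 and 6.91 in controls. In SQ20B they read 7.74, 7.61 and 7.62, against 5.63, 5.80 and 5.92 in controls, and in SCC61 7.85, 8.24 and 7.94, against 6.71, 6.76 and 6.83. The CTX arrays of these 3 lines reached like levels from different starting levels. In SCC047 the CTX arrays read 7.00, 6.64 and 7.07, against 6.56, 5.91 and 6.24 in controls. In SCC090 they read 8.72, 8.47 and 8.56, against 8.09, 7.98 and 8.24, and in 93VU147T 7.72, 7.46 and 7.74, against 6.41, 6.72 and 6.53. No CTX array overlapped with a control array of its line. The change was smallest in SCC090, at 0.48 (adjusted p = 0.0501 within the line), and 0.48 without SCC090 control replicate 1. Within the other 5 lines it was called. A further NEBL probe set also had 1 sign in 6 lines, with a mean of 0.94. The size differed between lines from 0.48 to 1.87 (adjusted p of the F test of line differences = 4.7e-07).

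**Figure D1:**
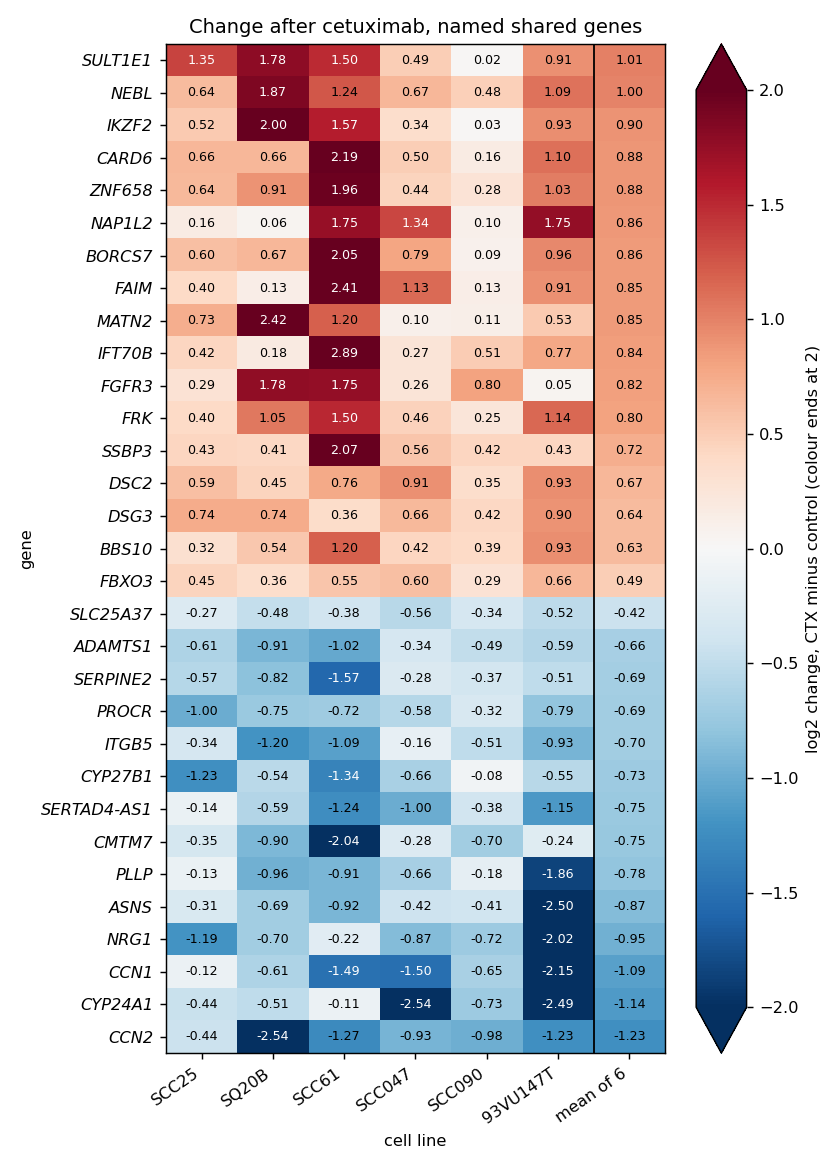
Log2 change (CTX minus control) of the 31 genes named for the largest mean change or for the largest smallest change, as a colour map with 1 row a gene, 1 column a line and the mean of the 6 lines at the right; the colour scale ends at 2. Every cell of a row has 1 sign, the palest column is SCC090, and the rises of 2 or more lie in SQ20B and SCC61.

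Desmosomal genes rose in all 6 lines more often than the members of any other list analysed. Of the 34 genes analysed on the list of desmosomal and late keratinocyte differentiation genes, 9 rose in all 6 lines and 0 fell, against 2.77% and 4.20% of all genes. In the mean of the lines 25 of the 34 were called higher and 1 lower, where 22.8% of all genes were called higher and 23.1% lower, and the median change was 0.31 (-0.02 over all genes). The same 9 of the 34 rose without SCC090 control replicate 1. The 9 genes were the desmosomal cadherins DSG3, DSC2 and DSC3, the plaque proteins JUP (plakoglobin), DSP (desmoplakin), PPL (periplakin) and EVPL (envoplakin), the desmosomal membrane protein PERP, and IVL (involucrin), a precursor of the cornified envelope.

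DSG3, a desmoglein, rose by 0.64 ± 0.05 (adjusted p = 1.6e-12). Its CTX arrays read 11.15, 11.28 and 11.18 in SCC25 against 10.70, 10.45 and 10.24 in controls, and 8.84, 8.77 and 8.88 in SQ20B against 7.93, 8.10 and 8.25. In SCC61 they read 9.91, 10.03 and 9.94, against 9.72, 9.57 and 9.49, and in SCC047 10.04, 9.88 and 9.79, against 9.40, 9.17 and 9.18. The controls of these 4 lines lay at different levels. In 93VU147T the CTX arrays read 8.99, 8.89 and 9.16, against 8.12, 8.03 and 8.19. In SCC090 they read 9.02, 8.92 and 8.99, against 8.24, 8.69 and 8.75 in controls, a change of 0.42 with and 0.26 without control replicate 1 (within-line adjusted p 0.0514 and 0.65). CTX and control arrays did not overlap in any line.

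DSC2 rose by 0.67 ± 0.05 (adjusted p = 3.2e-13), from a smallest change of 0.35 in SCC090 (0.20 without control replicate 1) up to 0.93 in 93VU147T, also without overlap in any line. DSC3 rose by 0.46 ± 0.07 (adjusted p = 2.5e-06) with no overlap in any line, but its change was called within only 3 lines. In SCC090 its change was 0.54 with and 0.215 without control replicate 1. JUP rose by 0.45 ± 0.03 and was called in SCC25, SQ20B, SCC047 and 93VU147T, with its smallest change in SCC61 (0.12). DSP rose by 0.41 ± 0.05, PPL by 0.36 ± 0.04, PERP by 0.32 ± 0.03 and EVPL by 0.22 ± 0.04. IVL rose by 0.79 ± 0.06, of which a change of 2.70 in SCC61 made the largest part, while the other lines gave 0.13 to 0.65. The further probe sets of DSG3, DSC2 and DSC3 gave means of 0.85, 0.70 and 0.57. Each had 1 sign in 6 lines, although that of DSC2 changed by only 0.001 in SQ20B.

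The keratins of the list did not keep 1 sign. KRT13, the keratin of non-cornified mucosa, rose by 1.36 in the mean but fell by 0.73 in SCC047, while SQ20B gave 3.28. KRT15 averaged 0.95 (0.74 without SCC090 control replicate 1) and was at -0.41 in SCC047. In SCC090 KRT13 changed by 1.515 with and 0.86 without that array, and KRT15 by 1.565 and 0.35. Among the 27 genes for epithelial junctions and polarity 2 rose in all lines (against 2.77% of all genes). CDH1 (E-cadherin) rose by 0.39 ± 0.04 with calls in 5 lines and GRHL1, a grainyhead factor of epidermal differentiation, by 0.55 ± 0.05. In the mean 16 of the list were called higher and 2 lower (median change 0.17), against 22.8% and 23.1% of all genes. A further CDH1 probe set gave 0.25 in the mean and -0.22 in SQ20B, and a further GRHL1 probe set gave 0.16 and -0.26.

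**Figure D2:**
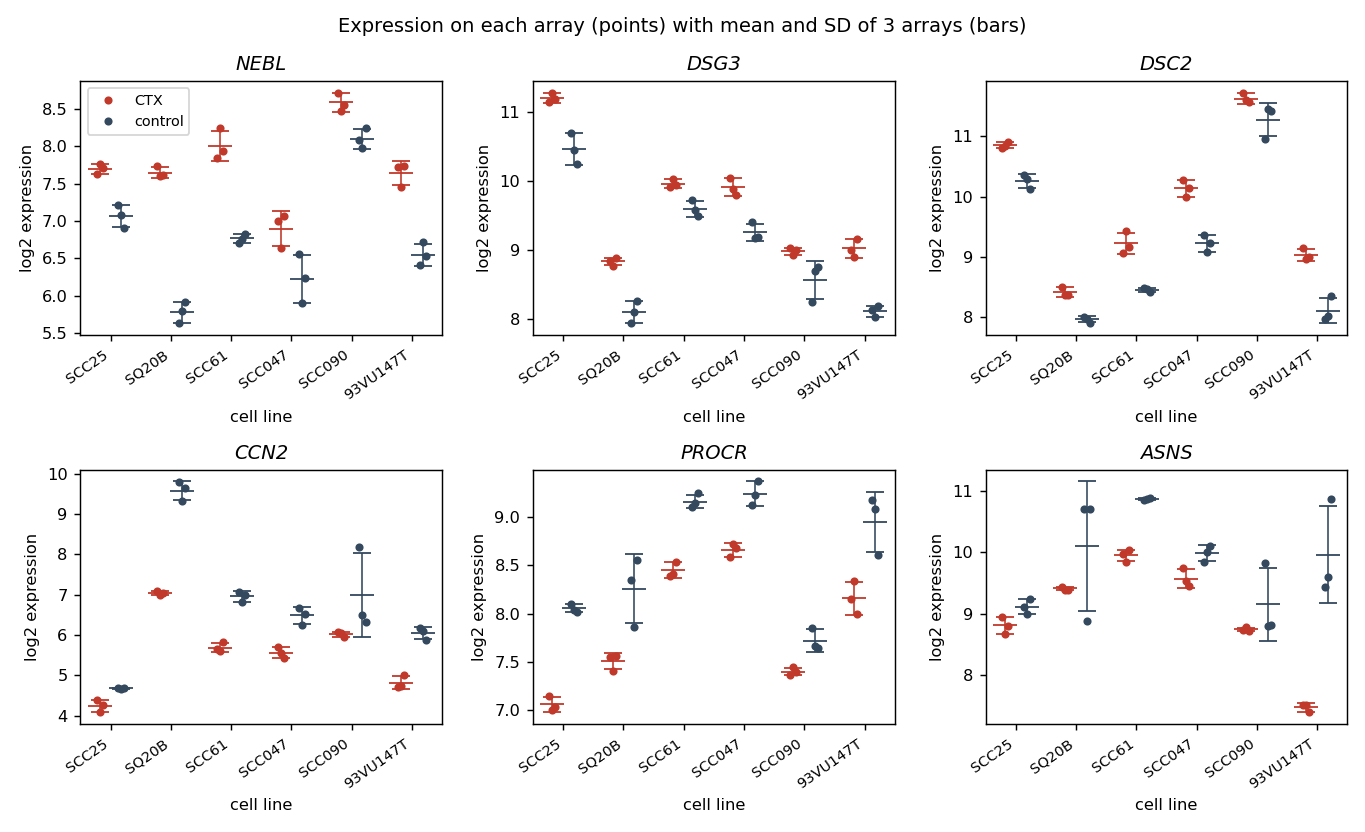
Log2 expression of 3 shared rises (NEBL, DSG3, DSC2) and 3 shared falls (CCN2, PROCR, ASNS) on each array, with CTX in red at the left and control in grey at the right within each line; bars are the mean and SD of 3 arrays. The CTX and control arrays do not overlap in any line for the first 5 genes, whereas for ASNS 1 control array of SQ20B reads 8.88, below the CTX arrays, and SCC090 control replicate 1 stands apart for CCN2 at 8.19.

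Among the 12 largest shared falls, CCN2 fell by 1.23 ± 0.10 log2 units (adjusted p = 1.5e-11) and CCN1 by 1.09 ± 0.06 (adjusted p = 5.5e-16). CYP24A1, the enzyme that breaks down active vitamin D, fell by 1.14 ± 0.13, and CYP27B1, the enzyme that makes it, by 0.73 ± 0.04. NRG1, a ligand of the EGFR relatives ERBB3 and ERBB4, fell by 0.95 ± 0.08, and ASNS by 0.87 ± 0.13. PLLP (plasmolipin) fell by 0.78, CMTM7, a membrane protein of the MARVEL family, by 0.75, SERTAD4-AS1, an antisense transcript, by 0.75, ITGB5, an integrin chain, by 0.70, PROCR, the receptor of protein C, by 0.69 and SERPINE2, an inhibitor of thrombin and plasminogen activators, by 0.69. The further probe sets of ITGB5, SERPINE2 and CMTM7 gave 0.08, -0.08 and -0.09 and were not called, so these 3 falls rest on the probe set kept. A further NRG1 probe set gave -0.565 in the mean but 0.26 in SCC047, so it did not have 1 sign. In SCC090 the changes of ITGB5, CMTM7 and NRG1 were -0.51, -0.70 and -0.72. Without control replicate 1 they were -0.19, -0.42 and -0.42, and none was called. NRG1 lay near background in SCC090, with CTX arrays at 4.40, 4.59 and 4.34.

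CCN2 read lower on every CTX array than on every control array of its line. In SCC25, where its level was lowest, the CTX arrays read 4.39, 4.09 and 4.26 and the controls 4.69, 4.66 and 4.70. In SQ20B the CTX arrays read 7.10, 7.00 and 7.05, against 9.79, 9.33 and 9.64. In SCC61 they read 5.66, 5.60 and 5.82, against 7.07, 6.81 and 7.00. The change was -2.54 in SQ20B and -0.44 in SCC25, where it was not called (adjusted p = 0.26). The sizes of these lines cannot be ranked, since the SCC25 controls lay near background, with little room below them. In SCC047 the CTX arrays read 5.70, 5.56 and 5.42, against 6.68, 6.26 and 6.52, and in 93VU147T 4.72, 4.74 and 5.01, against 6.17, 6.09 and 5.89. In SCC090 they read 6.07, 6.04 and 5.95, against 8.19, 6.49 and 6.32. There the change of -0.98 (within-line adjusted p = 0.031) was -0.38 without control replicate 1 (adjusted p = 0.34), which left the mean of the 6 lines at -1.13.

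CCN1 behaved alike in sign and apart in size. Its change was -0.12 in SCC25, where it was not called, and -2.15 in 93VU147T, and it was called in the other lines. In SCC090 its change of -0.65 (within-line adjusted p = 0.0083) was -0.38 without control replicate 1, where it was not called (adjusted p = 0.16). CTX and control arrays of CCN1 did not overlap in any line, and a further probe set gave a mean of -1.16 with 1 sign. Of the 19 YAP and TEAD target genes analysed 4 fell in all lines (against 4.20% of all genes), namely CCN1, CCN2, the tissue factor gene F3 (-0.46) and the receptor kinase gene AXL (-0.21). In the mean 11 were called lower and 1 higher (median -0.15), where 23.1% of all genes were called lower and 22.8% higher. Without SCC090 control replicate 1 the falls in all lines were 5, with ANKRD1, a nuclear ankyrin repeat protein, added. NT5E, which encodes CD73, fell by 0.54 in the mean but rose by 0.63 in SCC047.

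PROCR fell by 0.32 or more in every line. It fell by 1.00 in SCC25 and changed by -0.75 in SQ20B, -0.72 in SCC61, -0.58 in SCC047, -0.32 in SCC090 and -0.79 in 93VU147T, and its CTX arrays lay below all controls in each line. It was called in 5 lines and not in SCC090 (adjusted p = 0.25). ADAMTS1, a secreted metalloprotease, fell by 0.66 ± 0.07 with changes from -0.34 to -1.02 (in SCC090 -0.49, and -0.22 without control replicate 1, then the smallest), and SLC25A37, the mitochondrial iron carrier, by 0.42 ± 0.04 with changes from -0.27 to -0.56. A further SLC25A37 probe set gave -0.33 in the mean, with 0.10 in SCC25 and -0.93 in 93VU147T. The even fall of SLC25A37 thus rests on the probe set kept. For ADAMTS1, SLC25A37 and FBXO3, an F-box gene that rose by 0.49 ± 0.05, the F test found no difference between lines (adjusted p = 0.076, 0.48 and 0.23), which does not show that the lines respond alike.

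Among 21 proteases and plasminogen activation genes 4 fell in all lines (against 4.20% of all genes), also without SCC090 control replicate 1. Besides SERPINE2 these were ADAM19 (-0.63), PLAUR, the urokinase receptor (-0.45), and the protease inhibitor TIMP1 (-0.26). A further ADAM19 probe set gave -0.08 and was not called (adjusted p = 0.11), and the ADAM19 change in SCC090 was -0.54 with and -0.26 without control replicate 1. In the mean 8 of the list were called lower and 7 higher (23.1% and 22.8% of all genes), so the list as a whole had no direction (median -0.04). MMP1 fell by 0.77 in the mean with -2.62 in SCC61 and 0.03 in SQ20B, and MMP12 rose by 0.77 only through SQ20B (4.71), with a mean of -0.02 without that line.

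The 2 vitamin D enzymes were picked out after their values were seen. CYP27B1 read 5.51, 5.40 and 5.61 on the CTX arrays of SCC25, against 6.80, 6.77 and 6.63 on its controls, and it was called in all lines but SCC090, where it changed by -0.08. CYP24A1 was near the floor of the array in most lines. It was called in SCC047 (CTX 4.16, 4.10 and 3.84, control 6.56, 6.67 and 6.49) and in 93VU147T (CTX 3.76, 3.60 and 3.60, control 5.74, 6.66 and 6.03). In SCC090 its change of -0.73 went with control replicate 1 (5.73, against 3.46 and 3.41 in the other controls), and without that array the change was 0.04, so CYP24A1 no longer had 1 sign.

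Genes of the amino acid stress response were lower more often than higher. On the list of serine, one-carbon and amino acid stress genes 4 of 30 fell in all lines, ASNS, the mitochondrial folate enzymes MTHFD2 (-0.35), SHMT2 (-0.30) and ALDH1L2 (-0.15), and in the mean 17 were called lower and 2 higher (median -0.17). By line the list median ran from -0.64 in 93VU147T and -0.415 in SCC61 to 0.05 in SCC25. Of all genes 4.20% fell in all lines, and 23.1% were called lower and 22.8% higher in the mean. Without SCC090 control replicate 1 the falls in all lines were ASNS, MTHFD2 and ALDH1L2. In SCC090 MTHFD2 changed by -0.16 with and -0.035 without that array. Further probe sets of MTHFD2 (-0.13, adjusted p = 0.1) and ALDH1L2 (-0.065, adjusted p = 0.25) were not called. ALDH1L2 averaged 4.12 in CTX and 4.27 in control groups, near background. ATF4, the transcription factor of this response, fell by 0.55 in the mean but was at 0.17 in SCC25, and TRIB3, one of its targets, fell by 0.70 but was at 0.12 in SCC047. Among 15 transfer RNA synthetases, many of them ATF4 targets, AARS1 (-0.54), YARS1 (-0.43) and SARS1 (-0.38) fell in all lines, and 6 were called lower and 3 higher in the mean. The median of the synthetase list was -0.07. By line it ran from -0.265 in SQ20B to 0.075 in 93VU147T and 0.35 in SCC047. SARS1 was at 0.005 in SCC090 without control replicate 1, which left AARS1 and YARS1, and a further SARS1 probe set was not called (-0.15, adjusted p = 0.071). In SCC090 YARS1 changed by -0.196 with and -0.033 without control replicate 1, and AARS1 by -0.34 and -0.22. ASNS varied among control arrays. Its controls read 10.71, 8.88 and 10.71 in SQ20B, where the CTX arrays read 9.44, 9.39 and 9.39, and in 93VU147T 9.43, 9.60 and 10.87, against 7.50, 7.51 and 7.39 on CTX arrays. Only SCC61 and 93VU147T gave a called change, the change in SCC090 was -0.41 with and -0.06 without control replicate 1, and a further ASNS probe set gave -0.06 (adjusted p = 0.22).

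The shared members of other lists were few. Of all genes 2.77% rose and 4.20% fell in all lines. BCL2L1, which encodes the survival protein BCL-XL, fell by 0.49 ± 0.03 and was called in 5 lines, and of 21 cell death genes BAK1 (-0.24) and the death receptor TNFRSF10B (-0.28) also fell while BIRC2 rose (0.19). BAK1 was at 0.03 in SCC090 without control replicate 1 and left the shared set. ERRFI1, the feedback inhibitor of EGFR also known as MIG6, fell by 0.65 ± 0.04 and the deubiquitinase USP8 rose by 0.25 among 19 receptor trafficking genes. FOXO1 (0.28) was the single shared member of 30 FOXO and PI3K brake genes, and RB1 (0.41) that of 14 CDK inhibitor and RB family genes, although a further RB1 probe set gave -0.02. Of 15 histone genes H2BC5 (0.63), H2BC12 (0.18) and H3-3A (0.19) rose and H1-4 (-0.31) fell, with the limit that histone copies are near-identical. H2BC5 was at -0.03 in SCC090 without control replicate 1 and left the shared set, and its further probe set read -0.34 in SCC61. NDUFB3 (0.27), NDUFA5 (0.26) and SDHD (0.14) rose among 28 oxidative phosphorylation genes, and PGK1 (0.33) and BNIP3L (0.25) rose and ANGPTL4 (-0.40) fell among 28 glycolysis and hypoxia genes. Further probe sets of NDUFA5 (0.09, adjusted p = 0.18), SDHD (0.05, adjusted p = 0.55) and BNIP3L (0.08, adjusted p = 0.057) were not called. BNIP3L was at -0.02 in SCC090 without control replicate 1 and left the shared set. In the mean, 18 of the oxidative phosphorylation and 19 of the glycolysis and hypoxia genes were called higher and 3 and 5 lower. The shares of all genes were 22.8% and 23.1%.

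Cell cycle genes did not keep 1 sign over the lines. Of all genes 22.8% were called higher and 23.1% lower in the mean. Among 32 mitosis genes 25 were called higher in the mean and 1 lower, with a median change of 0.22, yet 0 of the 32 had 1 sign in all lines. Their median change was -0.39 in SCC25 and 0.08 in SCC090, against 0.66 in 93VU147T and 0.46 in SCC047. MKI67, the proliferation marker, averaged 0.62 with 1.63 in SCC61 and -0.29 in SCC25. Of 32 DNA replication genes 13 were called higher and 2 lower in the mean and 0 had 1 sign, with a median of 1.48 in SCC61 and -0.56 in SQ20B, and the lists for sterol synthesis, the unfolded protein response, nucleotide synthesis, MondoA, cytokines, basal adhesion and the circadian clock also held 0 shared genes. Ribosome biogenesis held 1 of 34, NOB1 (-0.36), with list medians of -0.61 in SQ20B and 0.67 in SCC047.

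**Figure D3:**
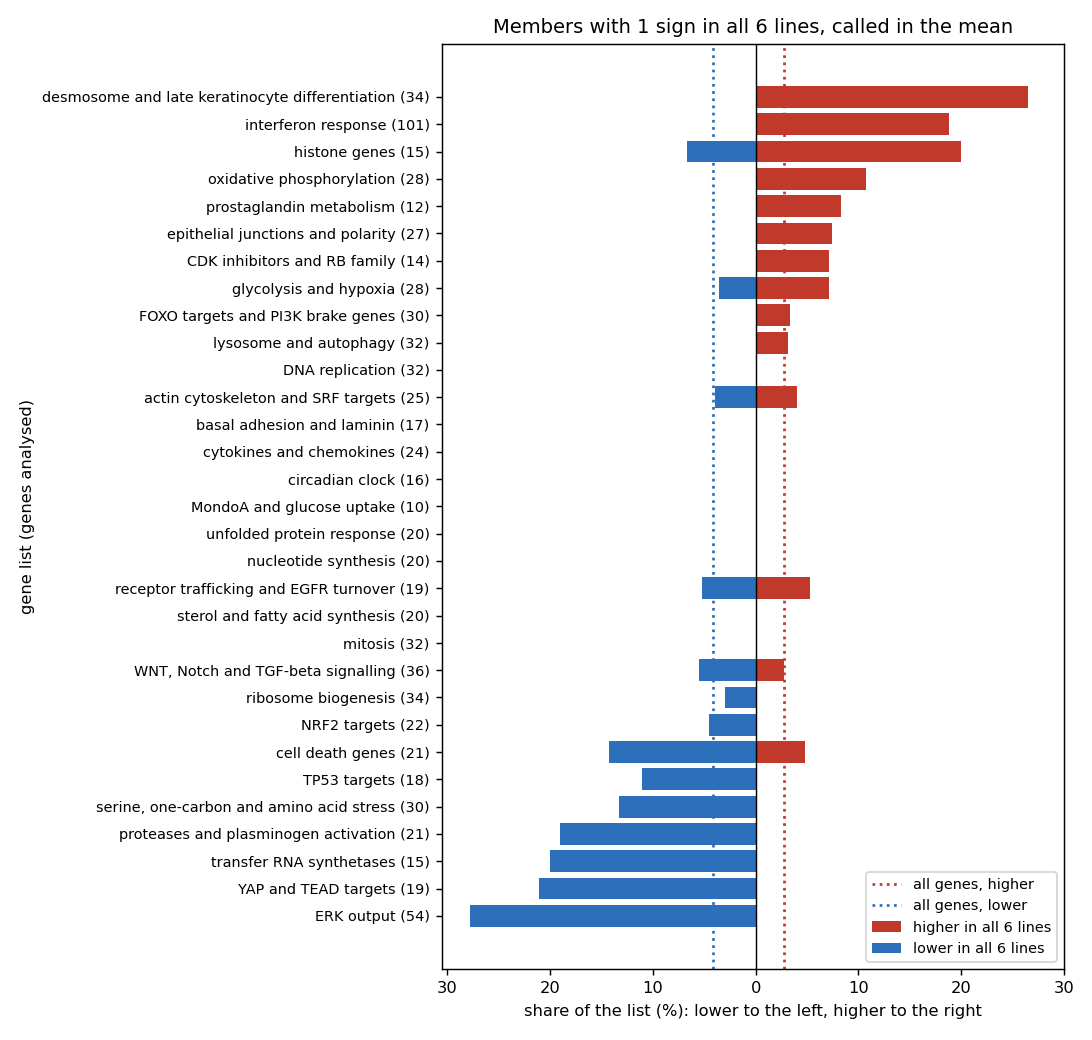
Share of each gene list (percent of the genes analysed, number in brackets) that was higher (red, to the right) or lower (blue, to the left) in all 6 lines and called in the mean, with dotted lines at the shares of all genes (2.77% and 4.20%). The desmosomal list reaches 9 of 34 to the right, the YAP and TEAD list 4 of 19 to the left, and lists such as mitosis hold 0.

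The programs set aside changed more strongly. Of 54 ERK output genes 15 fell in all lines (against 4.20% of all genes), with DUSP6, the ERK phosphatase, at -2.31 ± 0.11 and EGR1 at -2.62 ± 0.11. Of 101 interferon genes 19 rose (against 2.77% of all genes), with SAMD9 at 1.32 ± 0.06. Genes called within each of the 6 lines separately numbered 5, all lower and all ERK output (DUSP6, ETV4, FOXD1, HBEGF and IER3), and 0 outside the 2 programs. Without SCC090 control replicate 1 the count was 3. ETV4, FOXD1 and HBEGF were then no longer called in SCC090 (adjusted p = 0.60, 0.36 and 0.56), so the 3 include a gene that was not among these 5. Outside the 2 programs 35 rises and 17 falls were called within at least 5 lines. Over all shared genes 29 rises and 176 falls were called within 0 lines, so for these the sign and the mean carry the membership.

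A stricter view asks where every CTX array lay on 1 side of every control array of its line, in each of 6 lines. This held upward for 21 genes and downward for 21, 0.106% of all genes in each direction. It held for 19 and 14 once genes on the ERK output and interferon lists were set aside, which may not hold every gene of those programs. The 19 were NEBL, AIM2, DSC2, DSG3, CXADR, NMU, C1orf53, HMGN3, MEIS1, SLC35D1, DSC3, BPNT1, ARHGEF3, VPS36, PPL, CETN2, DERA, PPM1D and SKP1. Of these AIM2, a sensor of cytosolic DNA, rose by 0.70, CXADR, the junctional receptor of coxsackieviruses and adenoviruses, by 0.63, NMU, the peptide neuromedin U, by 0.59 and MEIS1, a homeobox factor, by 0.51. The 14 were CCN2, CCN1, ITGB5, PROCR, SERPINE2, ADAMTS1, SSH1, PLEK2, MMD, SLC25A37, RSAD1, DDAH1, RP9P and MRPS5. SSH1, a cofilin phosphatase, fell by 0.55 and PLEK2, a pleckstrin of the actin cytoskeleton, by 0.55. These genes were counted because of their separation, which is again a description. RP9P is a pseudogene and shares sequence with its parent gene.

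The lines as wholes did not respond alike. Over the 19775 genes the changes correlated at 0.59 between SCC25 and SQ20B, 0.55 between SCC047 and 93VU147T and 0.31 between SCC61 and SCC047, but at -0.26 between SQ20B and SCC047 and -0.18 between SCC25 and SCC047, while SCC090 gave values from -0.04 to 0.17 with the other lines. These are correlations across genes, and genes are not independent replicates. The lines share no control arrays. A gene of 1 sign in all 6 lines without regard to the mean was found 586 times upward (2.96%) and 960 times downward (4.85%). The F test called a difference between lines for 59.0% of all genes, and within the shared set for 359 of the 548 rises (65.5%) and 235 of the 830 falls (28.3%).

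SCC090 set the limit of what could be shared. Only 102 genes (0.516%) were called higher and 175 (0.885%) lower in that line, against 8.66% and 7.30% in SCC25, 18.4% and 14.9% in SQ20B, 24.4% and 19.8% in SCC61, 17.3% and 19.0% in SCC047 and 15.8% and 18.8% in 93VU147T. Without SCC090 control replicate 1 they were 18 (0.0910%) and 32 (0.162%). The median size of the change in SCC090 was 0.08 over the shared genes and 0.08 over all genes, whereas in 93VU147T it was 0.25 and 0.17. SCC090 had the smallest change of the 6 lines for 256 of the shared rises and 317 of the shared falls. Of the genes called in the mean, 3208 failed by the sign of 1 line, and that line was SCC090 for 1226 of them. For 1652 of the 3208 the opposing change was under 0.1 in size, while among the members the smallest change was under 0.1 for 419 rises and 732 falls, so many genes stand close to the rule on either side.

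Choosing the genes on 5 lines and reading them in the line left out gives a measure that the choice did not use. Genes higher in the other 5 lines and called in their mean were also higher in 93VU147T for 529 of 669 (79.1%, against 42.5% of all genes), in SCC25 for 533 of 711 (75.0%, against 50.0%), in SQ20B for 524 of 735 (71.3%, against 45.0%), in SCC047 for 530 of 836 (63.4%, against 44.8%) and in SCC61 for 514 of 832 (61.8%, against 45.8%). Genes lower in the other 5 kept their sign in 93VU147T for 752 of 899 (83.6%, against 57.5%), in SCC61 for 691 of 928 (74.5%, against 54.2%), in SCC047 for 763 of 1041 (73.3%, against 55.2%), in SQ20B for 724 of 1024 (70.7%, against 55.0%) and in SCC25 for 791 of 1162 (68.1%, against 50.0%). The share was above that of all genes in these 5 lines and in both directions. Called changes in the same direction outnumbered those in the other, most in 93VU147T (336 against 41 for rises) and least in SCC61 (347 against 166).

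In SCC090 the genes chosen on the other 5 lines kept their sign about as often as any gene. Of 1030 rises 546 were higher (53.0%, against 49.8% of all genes), and of 1846 falls 823 were lower (44.6%, against 50.2%). Without SCC090 control replicate 1 these shares were 50.6% (against 49.6%) and 48.3% (against 50.4%). Called in SCC090 in the same direction were 5 of the rises (0.485%, against 0.516% of all genes) and 21 of the falls (1.14%, against 0.885%), shares near the background. In the opposite direction 7 of the genes chosen as rises were called (0.68%, against 0.885% of all genes called lower). Of those chosen as falls 1 was called higher (0.0542%, against 0.516% of all genes). Without control replicate 1 these counts in the opposite direction were 0 and 0. The 5 rises, with their changes in SCC090, were FGFR3 (0.80), CRYBG2 (0.58), DLX3 (0.66), MPZL2 (0.59) and PPL (0.35), and without control replicate 1 these changes were 0.37, 0.31, 0.56, 0.33 and 0.26. DLX3 is a homeobox factor of epidermal differentiation and MPZL2 an epithelial adhesion protein. Without control replicate 1, 0 of the rises (against 0.0910% of all genes) and 5 of the falls (0.271%, against 0.162%) were called, the 5 being DUSP6, IER3, PHLDA1 and SPRY2 of the ERK output list and STXBP6, a syntaxin-binding protein (-0.37 in the mean). Leaving the line out raised the shared counts to 1030 rises and 1846 falls.

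**Figure D4:**
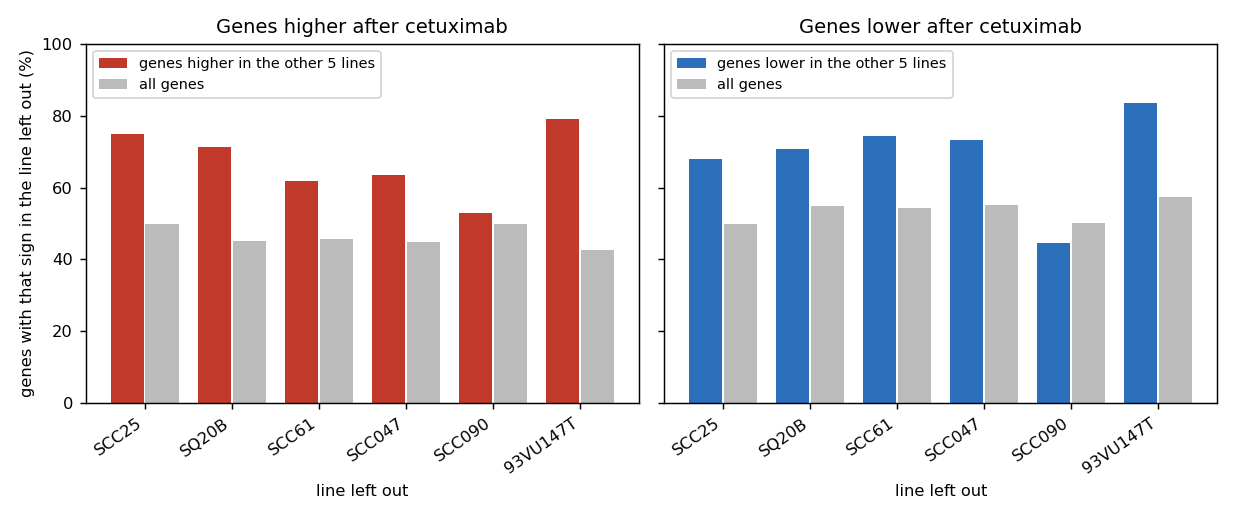
Percent of the genes chosen on 5 lines that had the same sign in the line left out (coloured bars; rises at the left, falls at the right) beside the percent of all genes with that sign (grey bars). In 5 lines the coloured bars exceed the grey ones in both panels, whereas in SCC090 they stand at 53.0% against 49.8% and at 44.6% against 50.2%.

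With the 6 lines as the unit of replication, 1 change a line, limma called 0 genes in the mean in either direction after adjustment (1065 higher and 1339 lower at an unadjusted p under 0.05, of 19775). The calls in the mean above thus speak of these 6 lines and of the spread between their arrays. Leaving out SCC090 control replicate 1 gave 528 rises and 888 falls, of which 437 and 714 were members with it, and 396 genes (186 rises and 210 falls) were shared under every one of the 36 fits that left out 1 array.

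The shared rises and falls differed in expression level, which the rule did not use. The median control level was 7.47 for the rises and 5.67 for the falls, against 6.20 for all genes, and 22.6% of the rises, 59.6% of the falls and 47.7% of all genes averaged under 6, a range where array signal lies near background. The size of the mean change reached 0.3 for 283 rises and 130 falls and 0.5 for 94 rises and 43 falls. A further probe set was on the array for 372 of the rises and 442 of the falls. It had the same direction in the mean for 301 and 374 of them and 1 sign in all 6 lines for 83 and 85, where 3.11% and 4.76% of the further probe sets of all genes had 1 sign upward and downward.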

How the data were processed

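Affymetrix HG-U133 Plus 2.0 arrays were hybridised with total RNA of the lines. The deposited values are log2 expression per probe set, which the authors normalised array by array with fRMA (frozen robust multiarray analysis). The methods also name pSVA, a batch correction, and whether it was applied to the deposited values is not given in the sources used here. Probe sets were named through the GEO platform table and 1 was kept per gene. All columns were mapped to a sample from the labels (0 not used).

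Changes were tested with limma 3.58.1 in R 4.3.3 (lmFit, contrasts.fit, eBayes) on 12 group means of 36 arrays, for each line, for the mean of the 6 lines and, by an F test, for differences between lines, with Benjamini-Hochberg adjustment over all 19775 genes at 0.05. No filter on low values was used. The number of arrays limits the precision. The scripts were tested on simulated data.

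The genes and lists were chosen with earlier results of these data known. Named were the 12 highest and 12 lowest mean changes among genes of 1 sign in all 6 lines that passed the test, the 6 rises and 6 falls of largest smallest change, and per list up to 4 members of 1 sign and up to 2 others that passed, with at most 3 from each program set aside. Genes named beyond these, such as those apart from controls in all lines, were chosen after their values were seen. The replicate numbers do not pair the arrays, since the deviations of arrays with the same number correlated at -0.15 to 0.32 and exceeded 0.1 in 7 of 18 pairs. Alternatives covered the probe set kept, a dim filter, scaling, the line as the unit, a replicate block, the arrays in the fit, the variance trend, a least change of 0.3, and leaving out each array and each line.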

Additional observations from a re-analysis of the deposited data

Results flagged for a closer look

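For 13 of the 172 named genes, 1 line lay far from the other 5 by Dixon's criterion (gap to the next line over the range, at the 95% critical value for 6 values), which chance passes for about 1 in 20 groups. The values are log2 changes, CTX minus control.

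SCC61 stood apart for 7 of them. Involucrin (IVL) rose by 2.70 there, against 0.13 to 0.65 in the other lines, IFT70B by 2.89 (others 0.18 to 0.77), SSBP3, a single-strand DNA binding protein, by 2.07 (others 0.41 to 0.56) and the glycolytic enzyme gene PGK1 by 1.23 (others 0.03 to 0.26). CMTM7 changed by -2.04 (others -0.90 to -0.24), the collagenase gene MMP1 by -2.62 (others -0.73 to 0.03) and the clock repressor gene CIART by -1.89 (others -0.47 to 0.19).

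SQ20B stood apart for MMP12, macrophage elastase, at 4.71 (others -0.33 to 0.33), for ANGPTL4, an inhibitor of lipoprotein lipase, at -1.75 (others -0.29 to -0.02) and for the Notch ligand gene JAG2 at 0.81 (others 0.03 to 0.18). In 93VU147T ASNS changed by -2.50 (others -0.92 to -0.31) and USP8 by 0.67 (others 0.02 to 0.25). In SCC090 ABCB1, the multidrug transporter, changed by -0.65 (others -0.22 to -0.04), and by -0.43 without SCC090 control replicate 1.

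By limma's F test the size of the change differed between lines for 359 of the 548 shared rises and 235 of the 830 shared falls, so 1 sign in 6 lines did not mean 1 size.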

How the results depend on the processing

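The reference counts were 548 rises and 830 falls shared by all lines, 4514 and 4559 called in the mean and 0 and 5 called in each of the 6 lines. With the line as the unit of replication limma gave 0 and 0 in the mean and 0 and 0 shared (1065 and 1339 in the mean at an unadjusted p under 0.05), and each of the 171 named genes called before lost its call. With the probe set of second highest mean, which fewer genes have, the counts were 298 and 408 shared, 2176 and 2085 in the mean and 2 and 1 in each line. A least change of 0.3 left 283 and 130 shared and 1070 and 468 in the mean, and the dim filter left 433 falls. Rises called in each line were 2 with all 42 arrays, the dim filter, the variance trend, the ratio of deviations or the replicate block, 2 with 3 falls for quantile normalization and for the mean of probe sets, and 1 with medians centred, where shared rises and falls were 659 and 662. Falls called in each line were 3 without SCC090 control replicate 1. Without SCC090 59 rises and 36 falls were called in each of the other lines, without SCC047 4 rises, without 93VU147T 1 rise and 2 falls and without SCC61 2 falls. Shared rises numbered 836 without SCC047, 832 without SCC61 and 1030 without SCC090, where shared falls numbered 1846. The fit with the replicate block gave 544 and 829 shared, 4593 and 4613 in the mean and 2 and 6 in each line. Leaving out 1 array gave 449 to 617 shared rises, 728 to 965 shared falls, 4354 to 4572 and 4206 to 4706 in the mean, and 0 to 5 and 2 to 7 in each line. With quantile normalization 69.7% of falls chosen on 5 lines kept their sign in SCC61, and in SCC090 60.0% of rises (55.1% of all genes) and 39.7% of falls (44.9%) did. Without SCC090 control replicate 1, chosen after seeing the data, the SCC090 shares were 50.6% and 48.3%. Mean changes of named genes turned sign for KHNYN, not called to begin with (-0.02 with the mean of probe sets, -0.12 with the ratio of deviations or the second probe set, -0.04 without SCC61), RB1 (-0.02 with either other probe set), ASAH1 (-0.01) and ALDH1L2 (0.05) with the ratio of deviations, and IKZF2 (-0.04), ITGB5 (0.08), IL1A (0.11), HERC6 (-0.04), TNC (-0.31), CAPZA1 (-0.00), LEF1 (0.03) and COL1A1 (-0.09) with the second probe set. Without SCC61 CCNE2 was at -0.06 and DBP at 0.01, and without SQ20B MMP12 was at -0.02 and AKR1C3 at -0.01. Over all alternatives, those above included, 8617 fits of named genes kept direction and call, 238 lost the call (171 of them with the line as the unit), 2 gained it and 20 turned sign. The cause was not tested. Near-background signal limits the falls most, since 59.6% of them averaged under 6.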

Other observations

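Gene families beyond the lists were counted after the values were seen, and the counts carry no test. Of all genes 22.8% were called higher and 23.1% lower in the mean. Of 26 intraflagellar transport and BBS genes, which build and run the primary cilium, 6 (23.1%, against 2.77% of all genes) rose in all 6 lines (IFT70A, IFT70B, IFT81, IFT122, IFT172 and BBS10) and 0 fell, with 17 called higher and 2 lower in the mean and a median change of 0.19. IFT70A and IFT70B are near-identical copies. Proteasome subunit and assembly genes (PSM symbols) moved in the mean without 1 sign, with 36 of 50 called higher, 2 lower, 0 of 1 sign in all lines and a median change of 0.17. Of 466 zinc finger genes named ZNF 26 (5.58%) rose and 12 (2.58%) fell in all lines, and of 1621 antisense and LINC transcripts 14 (0.864%) rose and 72 (4.44%) fell, where all genes gave 2.77% and 4.20%, with median changes of 0.03 and -0.03.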
